A study of Mus musculus with 4 samples.

Results

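Collagen chain genes and the enzymes and chaperone that process collagen were compared between Npac RNAi and control RNAi embryonic stem cells. The genes were taken by symbol from the array annotation: every symbol made of Col, a number, the letter a and a number, and 13 named processing genes. These are 55 genes, of which 53 were measured (42 collagen chains and 11 processing genes) among 18193 genes in all. The probe sets for Loxl2 carry several gene symbols and could not be assigned to it, and no probe set in the annotation used here names Adamts2.

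The cells were E14, a mouse embryonic stem cell line, grown in medium with 15% serum and LIF at 1000 units per ml. In the Npac RNAi group (2 arrays) the cells received a short hairpin RNA against Npac, the older name of Glyr1, which encodes a chromatin protein that binds nucleosomes. The control RNAi group (2 arrays) is labelled as control knockdown, with no description of its hairpin, and the growth text of all 4 samples names the Npac hairpin. Both groups went through the same selection, puromycin from 24 hours after transfection for 3 days. Nothing in the labels says that the replicates came from separate cultures, so the p-values measure the spread between these arrays, which may be technical.

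Each array gave 1 log2 signal per probe set, and a difference of 1 on this scale is a 2-fold change. A gene was called when its limma p, adjusted by Benjamini-Hochberg over all 18193 genes, was under 0.05. Glyr1 read 10.23 and 10.20 on the Npac RNAi arrays, against 11.30 and 11.32 on the control arrays (log2 difference -1.09). The 8 stem cell markers examined had signals between 9.86 (Utf1) and 14.75 (Dppa5a) on all 4 arrays. Of these, 6 were called lower in Npac RNAi. Pearson's r over probe sets, which are not independent, was 0.998 between the replicates of either group and 0.987 to 0.989 between arrays from different groups.

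Collagens are trimers of chains that wind into a triple helix. In the endoplasmic reticulum, prolyl and lysyl hydroxylases modify the chains and the chaperone Hsp47, encoded by Serpinh1, holds the helix; outside the cell, proteases trim the propeptides of fibrillar collagens and lysyl oxidases start the crosslinks. Type IV collagen forms the network of basement membranes, the sheets laid down by the first epithelia of the embryo, whereas types I, III and V build fibrils of mesenchymal tissue.

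Because the Col4a1 and Col4a2 genes, whose products join in the same trimer, were both raised in Npac RNAi cells, the sequence around their starts is shown. They are neighbours transcribed in opposite directions on mouse chromosome 8, and in the RefSeq table the starts used lie 21 bases apart. Col4a1 on the minus strand starts at 11312826 and Col4a2 on the plus strand at 11312805. The annotated genes therefore overlap at their starts, with no gap between them, and the bases before each start lie in the other gene. Each window holds 250 bases before and 50 after the start (GRCm38.p6, RefSeq), chr8:11312777-11313076 on the minus strand for Col4a1 and chr8:11312555-11312854 on the plus strand for Col4a2, and the windows share 78 bases. Capitals mark GGGCGG, the core of the Sp1 box, and CCAAT, the CCAAT box, on either strand.
Col4a1: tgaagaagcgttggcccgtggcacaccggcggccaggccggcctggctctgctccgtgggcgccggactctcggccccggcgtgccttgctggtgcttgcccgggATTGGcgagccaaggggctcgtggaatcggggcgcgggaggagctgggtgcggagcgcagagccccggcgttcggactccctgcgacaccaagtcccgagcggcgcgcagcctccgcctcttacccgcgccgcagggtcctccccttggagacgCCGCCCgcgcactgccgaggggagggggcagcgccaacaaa
Col4a2: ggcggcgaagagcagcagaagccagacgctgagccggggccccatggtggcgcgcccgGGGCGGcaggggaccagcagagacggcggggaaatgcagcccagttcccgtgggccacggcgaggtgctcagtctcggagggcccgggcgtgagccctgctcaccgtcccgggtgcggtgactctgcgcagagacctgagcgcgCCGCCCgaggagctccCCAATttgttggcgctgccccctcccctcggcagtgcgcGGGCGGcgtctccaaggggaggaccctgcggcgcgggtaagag
The Col4a1 window held 1 GGGCGG and 1 CCAAT, and the Col4a2 window 3 GGGCGG and 1 CCAAT. Counted with the first base of the gene as 0, the GGGCGG at 9 for Col4a1 and the one at 7 for Col4a2 are the same bases read from either strand. GGGCGG occurred in 35.7% and CCAAT in 37.4% of all 32851 promoter windows of this length, and in 65.1% and 34.9% of the 43 windows that matched 40 of the 53 measured collagen and processing genes. A match describes letters and not a bound site, and binding was not measured here.

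Of the 53 genes, 13 were called higher and 9 lower in Npac RNAi cells, a share of 24.5% and 17.0%. Over all genes tested, 22.1% were called higher and 18.7% lower, or 40.8% in either direction, so these shares lie near the background. The groups did not overlap for 32 of the 53 genes, beside 74.2% of all genes. The median log2 difference of the 53 genes was -0.02, beside -0.04 for all genes. The members differed among themselves in size and role. The genes at least 1.5-fold higher and called numbered 11 of 53, beside 8.09% of all genes, and were the 2 main type IV chains, 2 type V chains, Col18a1, Col22a1, Col6a4, Col17a1, Serpinh1, Plod3 and Pcolce. Only Col11a1 was called and at least 1.5-fold lower, beside 2.04% of all genes. Most other chains differed little, and 25 of the 42 chains were not called. In these bulk samples, a change in the share of cells expressing a gene and a change in RNA per cell cannot be told apart.

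**Figure D1:**
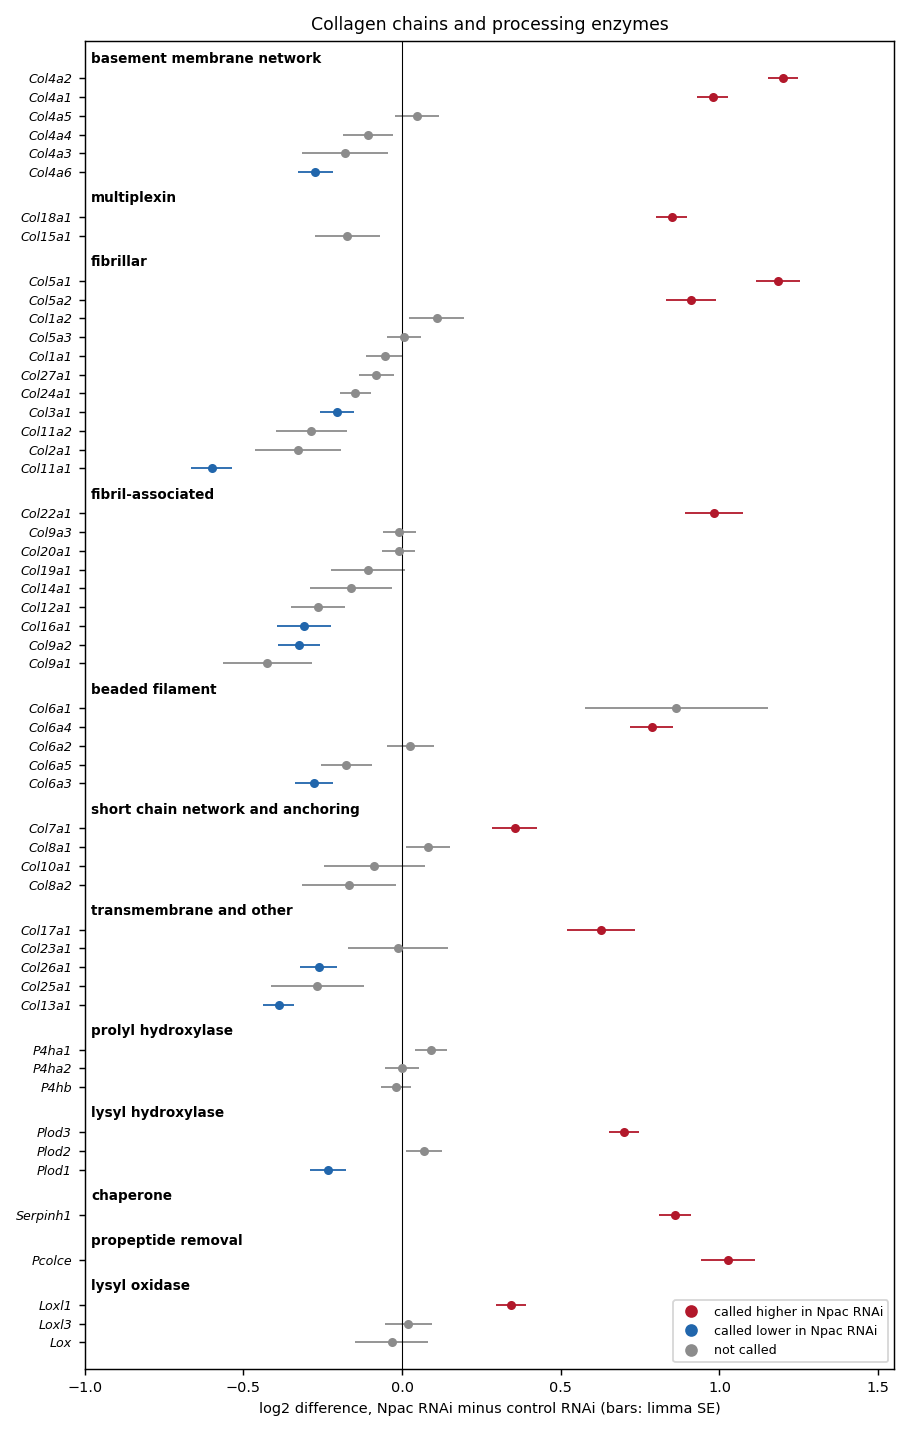
Log2 difference (Npac RNAi minus control RNAi) of each measured collagen chain and processing gene, grouped by role and with bars for limma's standard error. The called genes to the right run from Loxl1 at 0.34 to Col4a2 at 1.201, and the lowest called gene is Col11a1 at -0.60.

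Among the basement membrane collagens, Col4a1, Col4a2 and Col18a1 rose and Col4a6 was called lower. Col4a1 and Col4a2 encode the chains of the type IV trimer present in nearly all basement membranes. Col4a2 read 11.53 and 11.58 on the Npac RNAi arrays and 10.35 and 10.35 on the control arrays, and it rose 2.30-fold (log2 difference 1.201, SE 0.0476, limma adjusted p = 0.000956). Col4a1 read 12.54 and 12.60 on the Npac RNAi arrays and 11.58 and 11.60 on the control arrays, a 1.97-fold rise (log2 difference 0.98, SE 0.0492, limma adjusted p = 0.00133). For both genes each Npac RNAi array lay above each control array. Both are described because they were called, so this separation is no further support. A second probe set for Col4a1 gave 1.13.

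Col18a1, whose product carries endostatin at its end and sits in basement membranes, moved in the same direction. It read 11.07 and 11.05 on the Npac RNAi arrays and 10.18 and 10.24 on the control arrays (log2 difference 0.85, SE 0.0485, limma adjusted p = 0.00164), and its other probe set gave 1.07. The related Col15a1 was not called (-0.17, SE 0.102), with identical values on both Npac RNAi arrays. Among the chains of tissue-restricted type IV trimers, Col4a3 (-0.18), Col4a4 (-0.11) and Col4a5 (0.05) were not called, although the other probe set of Col4a5 read 0.60 higher (limma adjusted p = 0.0107 over all probe sets). Col4a6 was called slightly lower (-0.27, SE 0.0555, limma adjusted p = 0.023). All 4 had signals below the 25th percentile of all genes (5.51), and the call on Col4a6 was lost with any 1 array left out, at adjusted p from 0.0573 to 0.106.

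**Figure D2:**
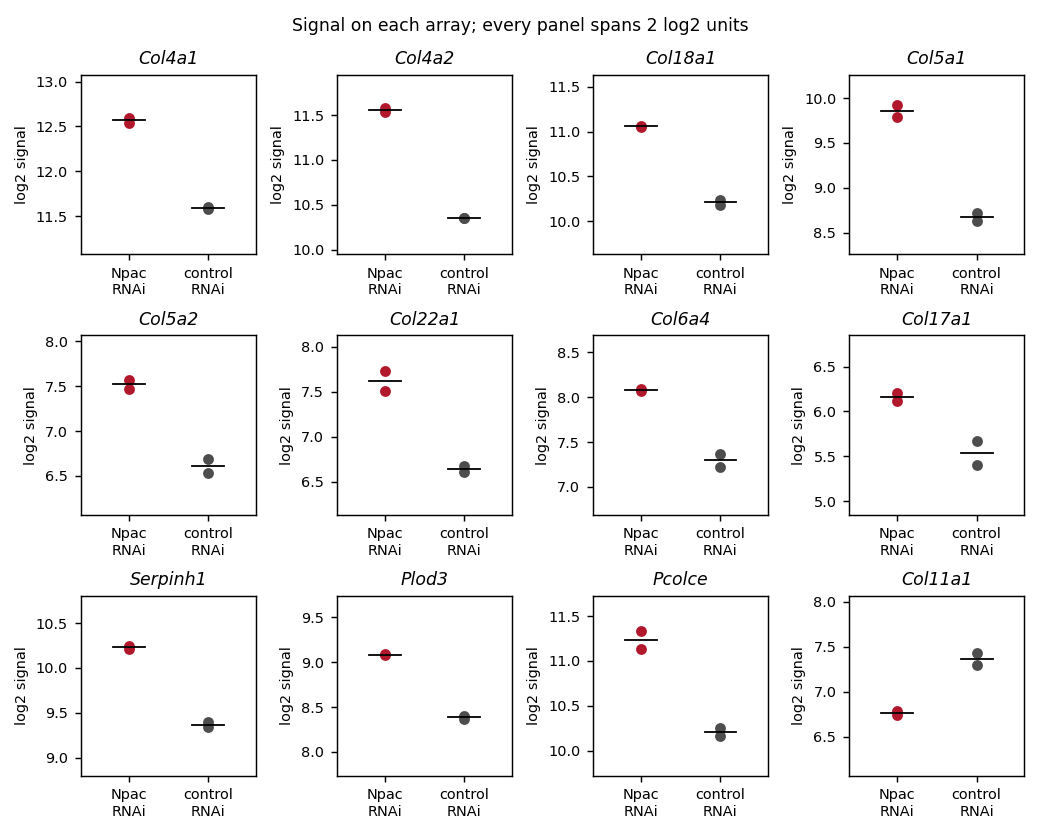
Log2 signal on each array for the 11 genes called at least 1.5-fold higher and for Col11a1, with Npac RNAi left of control RNAi in each panel, points for arrays and lines for group means. The arrays of the groups do not overlap in any of the 12 panels, and neither do they for 74.2% of all genes. The panels were chosen by their calls, so the lack of overlap is no further support. Col11a1 alone is lower in Npac RNAi.

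Among the fibrillar collagens, the chains of the common type V trimer rose and those of type I did not pass the test. Type V collagen starts and limits the growth of fibrils, and its common trimer joins the products of Col5a1 and Col5a2. Col5a1 read 9.79 and 9.92 on the Npac RNAi arrays and 8.71 and 8.63 on the control arrays, 2.27-fold higher (log2 difference 1.18, SE 0.0691, limma adjusted p = 0.0017). Col5a2 read 7.47 and 7.57 on the Npac RNAi arrays and 6.53 and 6.69 on the control arrays (log2 difference 0.91, SE 0.0789, limma adjusted p = 0.00346). Both were thus higher on each Npac RNAi array, which is no support beyond their calls. The size depended on the probe set, since the other Col5a1 probe sets gave 0.73 and 0.21 and that of Col5a2 gave 0.45. Col5a3, a chain of a rarer type V trimer, read 5.66 and 5.66 on the Npac RNAi arrays, against 5.70 and 5.61 on the control arrays (0.01, 95% interval -0.14 to 0.15).

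The type I chains, the main collagen of connective tissue, gave -0.05 for Col1a1 (95% interval -0.21 to 0.10) and 0.11 for Col1a2 (-0.12 to 0.34), and the groups overlapped for both. Col3a1, the partner of type I in soft tissue, read 3.58 and 3.63 on the Npac RNAi arrays, against 3.84 and 3.78 on the control arrays. Its call as lower (-0.20, limma adjusted p = 0.0416) was lost with any 1 array left out, at adjusted p from 0.0977 to 0.15. Col5a2 and Col3a1 are adjacent protein-coding genes in the RefSeq table, and they were called in opposite directions.

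Col11a1 encodes a chain of type XI collagen, the cartilage counterpart of type V. It read 6.74 and 6.79 on the Npac RNAi arrays and 7.43 and 7.30 on the control arrays, and it fell to 0.66 of the control level (log2 difference -0.60, SE 0.0637, limma adjusted p = 0.00518). Without any 1 array its difference stayed between -0.66 and -0.54 and its adjusted p between 0.0297 and 0.0323. The other Col11a1 probe set gave -0.19 and was not called. The other chains of the type XI trimer had lower means in Npac RNAi without a call. Col2a1 read 6.58 and 6.21 on the Npac RNAi arrays and 6.74 and 6.71 on the control arrays (-0.33, 95% interval -0.69 to 0.04). Without Npac RNAi array 1 it was called lower (-0.51, limma adjusted p = 0.0265), and without Npac RNAi array 2 it was not (-0.14, limma adjusted p = 0.225). Col11a2 read 5.58 and 5.45 on the Npac RNAi arrays and 5.67 and 5.93 on the control arrays (-0.29, 95% interval -0.59 to 0.02). The remaining fibrillar chains Col24a1 (-0.15) and Col27a1 (-0.08) were not called.

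The fibril-associated collagens, which decorate fibrils rather than form them, gave 1 higher and 2 lower of 9. These are 11.1% and 22.2%, beside 22.1% and 18.7% of all genes. Col22a1, known from muscle and tendon junctions, read 7.51 and 7.73 on the Npac RNAi arrays and 6.67 and 6.60 on the control arrays (log2 difference 0.98, SE 0.0914, limma adjusted p = 0.004). A further probe set also rose (0.81), while the remaining one did not pass the test (-0.20), so the probe sets of Col22a1 disagree. Col9a2, a chain of the cartilage collagen type IX, was called lower (-0.32, limma adjusted p = 0.0241), and so was Col16a1 (-0.31, limma adjusted p = 0.0482). The call on Col9a2 was lost without Npac RNAi array 2 or either control array (adjusted p 0.0848 to 0.109), and that on Col16a1 without any 1 array (0.0548 to 0.186). Col9a1 gave the lowest difference without a call (-0.42, SE 0.139) and was called without control array 2 (-0.61, limma adjusted p = 0.0394) but not without control array 1 (-0.24, limma adjusted p = 0.123). The partner Col9a3 stood at -0.01.

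Type VI collagen forms beaded filaments beside cells from trimers that join the Col6a1 and Col6a2 products with 1 of the others. Of those others, Col6a4 read 8.09 and 8.07 on the Npac RNAi arrays and 7.22 and 7.37 on the control arrays (log2 difference 0.79, SE 0.0673, limma adjusted p = 0.0034), with no call on its other probe set (-0.13). Col6a3 was called lower (-0.28, limma adjusted p = 0.0273), a call lost with any 1 array left out (adjusted p 0.0648 to 0.12), and Col6a5, at 3.58 and 3.51 on the Npac RNAi arrays against 3.81 and 3.63 on the control arrays, was not called. Col6a1 had the largest standard error of the 53 genes. It read 5.91 and 5.10 on the Npac RNAi arrays and 4.74 and 4.53 on the control arrays (0.86, SE 0.289, unadjusted 95% interval 0.08 to 1.65, limma adjusted p = 0.0766), without overlap between the groups. It was called without Npac RNAi array 2 (1.27, limma adjusted p = 0.019) and after quantile normalization (0.98, limma adjusted p = 0.0474). Without Npac RNAi array 1 its difference was 0.46 (limma adjusted p = 0.0647), and without control array 1 or 2 it had no call either (adjusted p 0.174 and 0.262). Col6a2 read 7.66 and 7.52 on the Npac RNAi arrays and 7.52 and 7.61 on the control arrays, with overlapping groups (0.03, 95% interval -0.17 to 0.23). The 5 type VI chains thus gave 1 call in each direction and 3 genes without a call. Each direction is 20.0% of them, beside 22.1% higher and 18.7% lower of all genes.

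Of the membrane-spanning collagens, Col17a1, the hemidesmosome collagen of stratified epithelia, read 6.21 and 6.12 on the Npac RNAi arrays and 5.40 and 5.67 on the control arrays (log2 difference 0.63, SE 0.107, limma adjusted p = 0.0153). Its call was lost without Npac RNAi array 1 (adjusted p = 0.0608) or array 2 (0.0562). Col13a1, found at cell adhesion sites, was lower (-0.39, SE 0.0498, limma adjusted p = 0.00773; 0.0507 without control array 2). Col26a1, a secreted collagen, was called lower (-0.26, limma adjusted p = 0.0279), which held only without Npac RNAi array 1 among the settings with 1 array fewer (adjusted p 0.0497, and 0.101 to 0.115 in the other 3). Col23a1 (-0.01) and Col25a1 (-0.27) were not called. Col7a1, which makes the anchoring fibrils under the epidermis, rose by a small step (0.36, SE 0.0705, limma adjusted p = 0.0217), and its call held without control array 1 only (adjusted p 0.0453, and 0.0575 to 0.0974 in the other 3). The short chain collagens Col8a1 (0.08), Col8a2 (-0.17) and Col10a1 (-0.09) were not called, and Col8a2 rested on single arrays. Without Npac RNAi array 1 it was called lower (-0.37, limma adjusted p = 0.0407), and without Npac RNAi array 2 its sign turned (0.04, limma adjusted p = 0.706).

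The chains were also split by their mean signal over the 4 arrays, a mean to which each chain's own change contributes. Of the 8 chains at or above the median signal of all genes (7.49), 5 were called higher and 1 lower, with a median difference of 0.82. Among the 34 chains below that signal, 4 were called higher and 7 lower, with a median of -0.15. Over all genes, 33.6% of those at or above the median signal were called higher and 19.3% lower, against 10.5% and 18.1% of those below it. Some chains lay on their side of the median only through their change. Col6a4, called higher, had a mean of 8.08 on the Npac RNAi arrays and 7.30 on the control arrays. Col13a1, called lower, had 7.17 on the Npac RNAi arrays and 7.56 on the control arrays, and Col25a1, not called, had 7.34 on the Npac RNAi arrays and 7.61 on the control arrays. The split is therefore a description, and whether direction depends on signal was not tested.

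**Figure D3:**
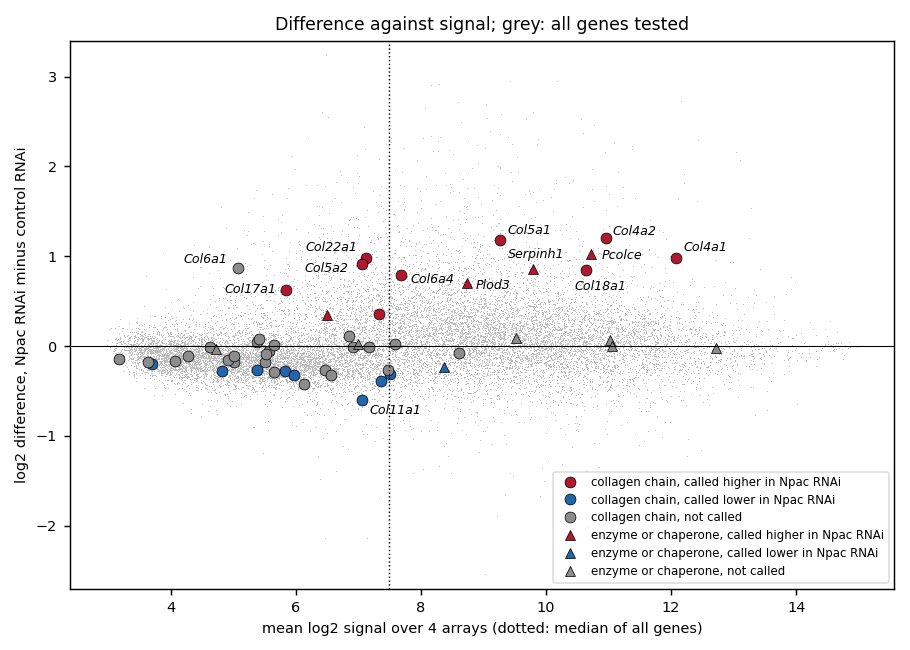
Log2 difference against mean log2 signal for collagen chains (circles) and processing genes (triangles) over all 18193 genes (grey), with a dotted line at the median signal of 7.49. Col4a2, Col5a1 and Col4a1 stand highest among the chains, and Col6a4 and Col13a1 lie near the line, on the side to which their own change moved them.

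The processing genes differed both between and within enzyme classes. Prolyl hydroxylase, which makes the hydroxyproline that stabilises the helix, is a complex of a catalytic subunit from P4ha1 or P4ha2 with P4hb, and none of the 3 genes was called. P4hb read 12.69 and 12.72 on the Npac RNAi arrays and 12.72 and 12.73 on the control arrays (-0.02, 95% interval -0.14 to 0.11). P4ha2 read 11.03 and 11.07 on the Npac RNAi arrays and 11.01 and 11.09 on the control arrays (0.00, 95% interval -0.14 to 0.15). The groups overlapped for both genes. P4ha1 read 9.58 and 9.55 on the Npac RNAi arrays and 9.51 and 9.44 on the control arrays (0.09, 95% interval -0.05 to 0.23), but its other probe set was lower (-0.48, limma adjusted p = 0.0101 over all probe sets), so P4ha1 depended on the probe set.

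Lysyl hydroxylases add the hydroxyl groups used for crosslinks and sugars, and the 3 genes gave a rise, a fall and no call. Plod3, whose product also attaches the sugars and is needed for type IV collagen in mouse embryos, read 9.09 and 9.08 on the Npac RNAi arrays and 8.37 and 8.41 on the control arrays. It rose 1.62-fold (log2 difference 0.70, SE 0.0474, limma adjusted p = 0.00215). Plod1, which acts on the helix of fibrillar collagens, read 8.24 and 8.26 on the Npac RNAi arrays and 8.53 and 8.43 on the control arrays. It was called lower (-0.23, SE 0.0574, limma adjusted p = 0.0373), and the call was lost with any 1 array left out (adjusted p 0.0686 to 0.126). Its other probe set was also lower (-0.31, limma adjusted p = 0.0215 over all probe sets). Plod2, which acts on the ends of the chains, read 11.09 and 11.03 on the Npac RNAi arrays and 10.95 and 11.03 on the control arrays without a call (0.07, 95% interval -0.09 to 0.22), while its second probe set was higher (0.33, limma adjusted p = 0.015 over all probe sets).

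The collagen chaperone and the enhancer of propeptide removal both rose. Serpinh1 read 10.21 and 10.24 on the Npac RNAi arrays and 9.34 and 9.40 on the control arrays, 1.81-fold higher (log2 difference 0.86, SE 0.0506, limma adjusted p = 0.00171). Its second probe set gave the same size of difference (0.86). Pcolce, which speeds the removal of the end propeptide by the protease Bmp1, read 11.14 and 11.33 on the Npac RNAi arrays and 10.25 and 10.16 on the control arrays. It was 2.04-fold higher (log2 difference 1.03, SE 0.0854, limma adjusted p = 0.00323), and 1.25 higher on its second probe set. Both genes kept their calls with each array left out in turn.

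Lysyl oxidases, which oxidise lysines in collagen and elastin so that they can crosslink, gave 1 call. Loxl1, mainly tied to elastin, read 6.65 and 6.67 on the Npac RNAi arrays and 6.34 and 6.30 on the control arrays (log2 difference 0.34, SE 0.0471, limma adjusted p = 0.00903). The call was lost without Npac RNAi array 2 (adjusted p = 0.0561) or control array 2 (0.0571) and with the mean of its probe sets (0.05), since the other gave -0.24. Lox itself read 4.83 and 4.59 on the Npac RNAi arrays and 4.84 and 4.64 on the control arrays (-0.03, 95% interval -0.35 to 0.28). Loxl3 read 7.07 and 6.93 on the Npac RNAi arrays and 6.93 and 7.04 on the control arrays (0.02, 95% interval -0.18 to 0.22).

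Leaving out 1 array at a time gave 11 to 13 genes called higher and 2 to 6 called lower, against 13 and 9 with all 4 arrays. The fewest lower calls, 2, came without Npac RNAi array 2 and without either control array, and 6 were called without Npac RNAi array 1. Without limma's pooling of variances across genes, 7 were called higher and 1 lower, beside 8.56% and 5.46% of all genes. Col5a2, Col22a1, Col6a4, Col17a1, Pcolce and Col11a1 were then among those with no call, whereas Col4a1, Col4a2, Col18a1, Col5a1, Serpinh1, Plod3 and Loxl1 were called.

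The scaling of the arrays changed how many members were called lower, and it changed the share of all genes called lower as well. After a further quantile normalization, 14 of the 53 genes were called higher and 6 lower, beside 18% and 23% of all genes. After centring each array on its median gene, 13 were called higher and 18 lower, beside 16% and 39% of all genes. Centring moved the median of all genes from -0.04 to -0.18 and that of the 53 genes from -0.02 to -0.16. Scaling to 24 spike-in probe sets, which read control transcripts of bacterial origin, lowered every log2 difference by 0.54. It left 8 of the 53 genes higher and 39 lower, beside 5% and 82% of all genes. The median was then -0.56, beside -0.58 for all genes. Col4a1, Col4a2, Col18a1, Col5a1, Col5a2, Col22a1, Serpinh1 and Pcolce were the 8 called higher under each of these scalings. Plod3 (0.16), Col6a4 (0.25) and Col17a1 (0.09) had no call with the spike-ins, and Col7a1 (-0.18) and Loxl1 (-0.20) were then below 0. The prolyl hydroxylase genes were called lower with the spike-ins (-0.56 for P4hb, -0.54 for P4ha2 and -0.45 for P4ha1), and P4hb also after centring (-0.16).

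**Figure D4:**
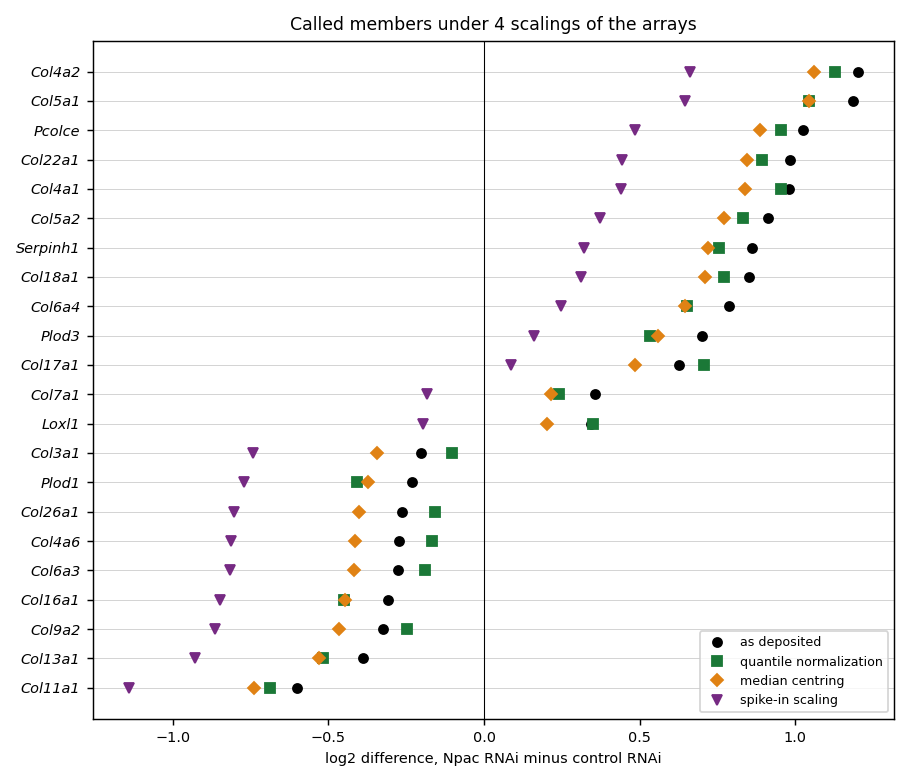
Log2 differences of the 22 called collagen and processing genes as deposited, after quantile normalization, after median centring and with spike-in scaling. Centring and spike-in scaling shift the whole set to the left, so that Col4a2 stands at 1.201 as deposited and 0.66 with the spike-ins, and Col7a1 and Loxl1 change side.

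The other genes of collagen making, binding and breakdown were read from a list of 58, of which 55 were measured. Of these 21 were called higher and 9 lower (38.2% and 16.4%, beside 22.1% and 18.7% of all genes), with a median difference of 0.08. Among 10 folding and modification genes 4 were higher and 1 lower. P3h4, a partner of lysyl hydroxylation in the endoplasmic reticulum, led with 8.94 and 8.87 on the Npac RNAi arrays and 7.63 and 7.67 on the control arrays (log2 difference 1.25, limma adjusted p = 0.00101). Crtap, the scaffold of prolyl 3-hydroxylation (0.32), and P3h3 of the same enzyme family (0.46) rose less.

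Of 10 secretion genes 3 were higher and 2 lower (30.0% and 20.0%, beside 22.1% and 18.7% of all genes), all by small steps. Mia3, the receptor that loads procollagen into transport carriers, rose by 0.38, while the carrier coat gene Sar1a and the coat regulator Klhl12 were lower (-0.35 and -0.27). Of 7 genes for propeptide removal and crosslinking 4 were higher and 1 lower (57.1% and 14.3%). The procollagen protease Bmp1 (0.81, limma adjusted p = 0.0037) and the crosslinking transglutaminase Tgm2 (1.11, limma adjusted p = 0.00219) rose. Pcolce2, the relative of Pcolce, fell (-0.53, limma adjusted p = 0.00687), in the opposite direction to Pcolce.

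Fibril and basement membrane partners gave 3 higher and 2 lower of 9 (33.3% and 22.2%, beside 22.1% and 18.7% of all genes). Bgn, a small proteoglycan that binds fibrils, showed the largest difference of the list, with 9.78 and 9.83 on the Npac RNAi arrays and 7.88 and 7.79 on the control arrays (3.91-fold, limma adjusted p = 0.000704). The collagen-binding protein gene Sparc (0.92) and the basement membrane proteoglycan gene Hspg2 (0.65) rose. The nidogens Nid1 (0.08) and Nid2 (-0.06), which link the networks of basement membranes, had no call, and the lower genes were Fn1, encoding fibronectin (-0.40), and Fmod, a fibril-binding proteoglycan (-0.35). Of 8 receptors 2 were higher and 2 lower. The receptor kinase Ddr1 rose (1.14, limma adjusted p = 0.00101) and so did the integrin subunit Itgb1 (0.44), whereas the collagen-binding subunit Itga2 fell (-0.46) and Ddr2, which prefers fibrillar collagens, fell by 0.48.

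Of 11 breakdown genes 5 were higher and 1 lower (45.5% and 9.09%, beside 22.1% and 18.7% of all genes). The protease inhibitors Timp3 (1.13, limma adjusted p = 0.00134) and Timp2 (0.82, limma adjusted p = 0.00171) rose along with the gelatinase Mmp9 (0.85, limma adjusted p = 0.00171). The other genes called higher were Timp1 (0.59) and the membrane-bound collagenase Mmp14 (0.78), and Timp4 was lower (-0.35). Inhibitors and proteases are mixed in this group, so its count gives no direction for breakdown. With spike-in scaling the 55 genes gave 10 higher and 35 lower, beside 5% and 82% of all genes.

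**Figure D5:**
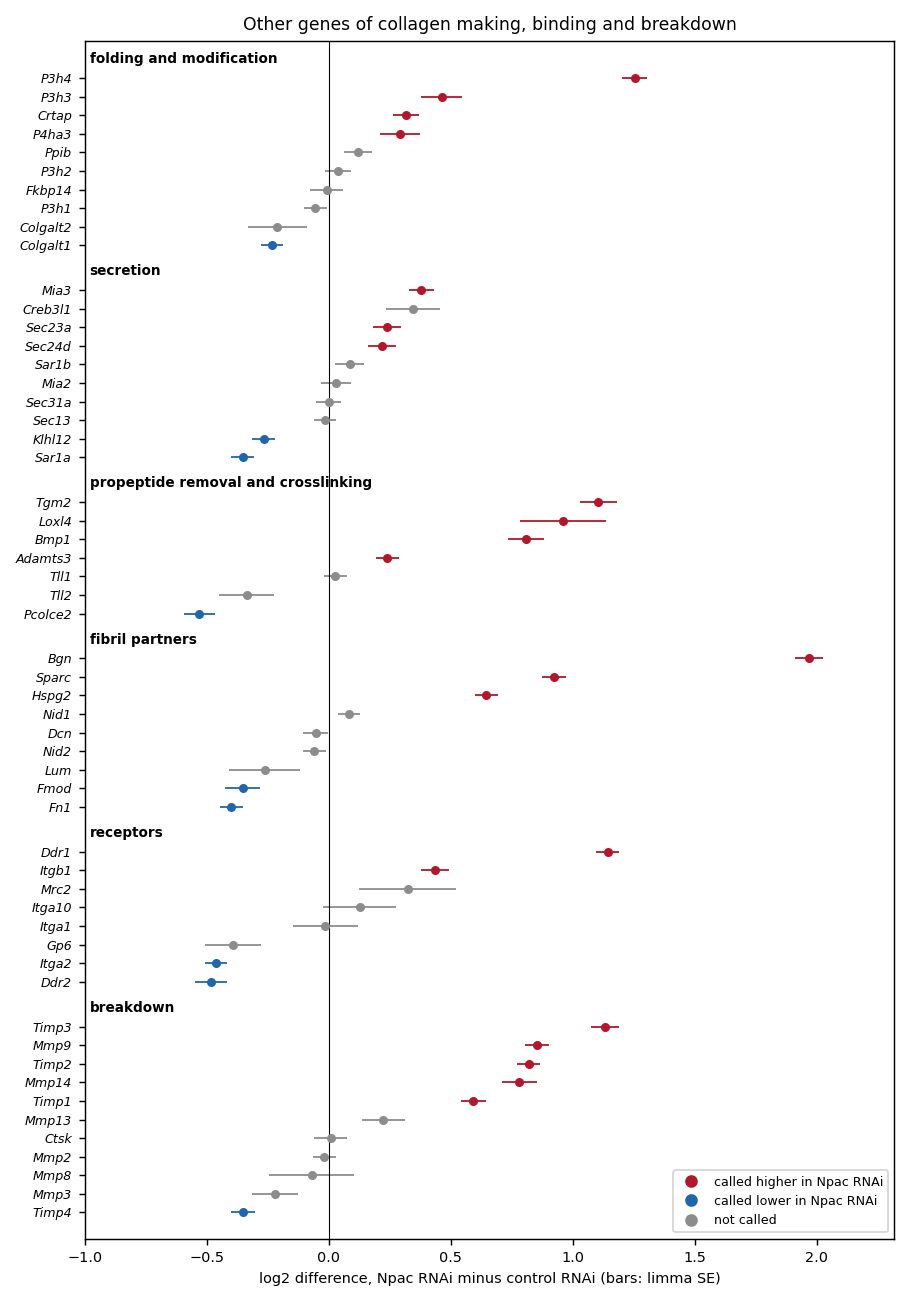
Log2 difference (Npac RNAi minus control RNAi, bars for limma's standard error) of the 55 other genes of collagen making, binding and breakdown, grouped by step. Bgn at 1.97 stands furthest right, followed by P3h4 at 1.25, and Pcolce2 at -0.53 is the lowest called gene.

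Markers of other cell types were read beside these values. Of 14 feeder fibroblast markers 2 were called higher and 3 lower (14.3% and 21.4%, beside 22.1% and 18.7% of all genes). Their summed linear signal was 1584 and 1565 on the Npac RNAi arrays and 1640 and 1510 on the control arrays, so the groups overlapped. Pdgfra, Fbln1 and Pdgfrb had the highest signals and carry much of this sum, and Pdgfra and Pdgfrb changed in opposite directions. Fap (mean log2 signal 3.83), Postn (4.59) and Lum (4.66) add little to it. The matrix genes Dcn (-0.05), Lum (-0.26) and Postn (-0.03) were among the 9 with no call. The higher ones were Pdgfrb (0.79) and S100a4 (0.36), and the lower ones Pdgfra (-0.49), Prrx1 (-0.29) and the matrix gene Mgp (-0.25). Of 12 primitive or parietal endoderm markers 4 were higher and 3 lower, with sums of 2996 and 3098 on the Npac RNAi arrays and 2859 and 2741 on the control arrays, without overlap. The regulator Foxa2 (0.66) was called higher, as were Afp (0.91), Thbd (0.73) and Plat (0.63), and Amn (-0.74), Ttr (-0.36) and Cubn (-0.30) were called lower. The regulators Gata4 (-0.02), Gata6 (0.00), Sox17 (0.25) and Sox7 (0.02) had no call, nor had Dab2 (0.16). Of 10 trophoblast markers 9 were higher (90.0%) and 0 lower, with sums of 43054 and 43590 on the Npac RNAi arrays and 10260 and 10384 on the control arrays. The keratin genes Krt8 (2.06) and Krt18 (2.15) had by far the highest signals and make up most of these sums. Ascl2 (2.69), Krt7 (2.52), Gata3 (2.32), Tfap2c (1.84) and Eomes (1.24) were also called higher. Cdx2 (0.63) and Hand1 (0.37) rose less, and Elf5 (0.42) had no call. Of the 8 stem cell markers 6 were lower and 0 higher. Their sums were 58828 and 59550 on the Npac RNAi arrays and 72905 and 72539 on the control arrays. Pou5f1 fell most (-1.17, limma adjusted p = 0.00101), followed by Zfp42 (-0.58), Nanog (-0.48), Utf1 (-0.36), Esrrb (-0.22) and Klf4 (-0.19). Sox2 (-0.14) and Dppa5a (-0.04) had no call, and Dppa5a had the highest signal in these sums. No marker was at 0, which this scale does not reach. The part of the feeder fibroblast, endoderm, trophoblast and stem cell markers in the collagen differences was not tested.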

How the data were processed

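RNA from E14 cells was labelled from 5 µg of total RNA and measured on 4 single-channel Affymetrix arrays, 2 per group, with groups taken from the sample titles. The deposited values are log2 signals made by the authors with RMA, per the submitters' processing notes, which give no version. RMA corrects background, equalises arrays and summarises probes, so a change shared by most transcripts is removed. The log base was inferred from the values (2.78 to 15.05 outside control probe sets). 

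Of 45101 probe sets, 64 controls were left out and 34945 carried 1 symbol, updated through Entrez identifiers to RefSeq (GRCm38.p6, names only) for 34741. Each gene was its probe set with the highest mean, which left 18193 genes with no filter on dim ones. The 53 measured members held 101 probe sets. limma 3.58.1 in R 4.3.3 (lmFit, eBayes, group only, 2 residual and 2.28 prior degrees of freedom) gave differences, moderated SE, unadjusted 95% intervals and Benjamini-Hochberg adjusted p-values, after a test on simulated data. The number of arrays limits the precision. Members and lists were chosen with earlier results of these data known. Any member could be named, with single arrays for those called at 1.5-fold or more, their trimer partners and every processing gene, and from the wider list up to 3 called genes per step with the smallest p. Nid1, Nid2, Ddr2, Fn1, Fmod, Timp1, Timp4, Mmp14, the markers named and the arrays of Col6a5 were chosen after their values were seen. Alternatives covered empirical Bayes form, scaling, a signal filter, probe set choice, thresholds, a replicate block and each array left out.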

Additional observations from a re-analysis of the deposited data

How the results depend on the processing

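Every alternative kept the direction of the 22 calls among collagen and processing genes except spike-in scaling, which turned Col7a1 (-0.18) and Loxl1 (-0.20). The number of members called higher (13) was 7 without moderation and 8 with spike-in scaling or when limited to genes of median signal or more, where only 16 members were tested, and 10 to 15 elsewhere. The number called lower (9) was 6 with the trend option and after quantile normalization, 1 without moderation and with a minimum fold of 1.2, 2 at an adjusted p under 0.01, in the brighter genes alone and with the replicate block, 18 after centring and 39 with spike-in scaling. Leaving out 1 array gave 11 to 13 members higher and 2 to 6 lower, with fewer degrees of freedom and the lone array assumed to vary like the other group. The wider list, 21 higher and 9 lower, gave 10 and 5 without moderation, 16 and 16 after centring, 10 and 35 with spike-in scaling, 15 and 5 in the brighter genes, 14 and 6 at an adjusted p under 0.01, 12 and 1 with the minimum fold, 17 and 6 with the replicate block, and 14 to 16 higher and 3 to 7 lower with 1 array left out. With the mean of each gene's probe sets, the wider list gave 16 higher and 8 lower. Further probe sets of single genes on that list are not shown here. The replicate numbers share no stated culture. Same-numbered arrays had only a weak tendency to deviate in opposite directions (r = -0.17 across genes, which are not independent). A crossed replicate block, added after this was seen, gave 13 members higher and 10 lower and 20 and 11 of the wider list. The block changed no call among the members at least 1.5-fold higher other than Col17a1. The cause of these changes was not tested. Dim chains near the lower end of the signal range could not be resolved.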

Other observations

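The 34 members with several probe sets give a second reading on the same arrays, which shares the RNA and is no replicate. The differences shared a sign for 20 of the 34 and differed in sign for 14. In 4 of the 14, namely Col22a1, Col6a4, Loxl1 and P4ha1, at least 1 probe set was called, and no member was called in both directions. In the other 10 no probe set was called. They were Col12a1 (from -0.31 to 0.16), Col23a1 (-0.30 to 0.07), Col25a1 (-0.27 to 0.19), Col4a3 (-0.18 to 0.12), Col5a3 (-0.17 to 0.01), Col20a1 (-0.13 to 0.00), Col19a1 (-0.11 to 0.13), Col27a1 (-0.08 to 0.10), Col8a1 (-0.06 to 0.16) and Col1a1 (-0.05 to 0.09). Among those of 1 sign, the probe sets of Col4a6 gave -0.27 and -0.29 and those of Col3a1 -0.20 and -0.24. The 3 probe sets of Col1a2 gave 0.11, 0.07 and 0.01, and the 3 of Lox gave -0.03, -0.06 and -0.06, with no call on any of these Col1a2 and Lox probe sets.

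Neighbouring members gave mixed calls. Of the 7 adjacent pairs in the RefSeq gene order, Col4a1 and Col4a2 were both called higher, Col3a1 and Col5a2 were called in opposite directions, Col6a4 was called beside an uncalled Col6a5 and Col4a6 beside an uncalled Col4a5. In the pairs Col9a1 and Col19a1, Col4a4 and Col4a3, and Col6a2 and Col6a1 neither gene was called.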
